A study of Homo sapiens with 10 samples.

Results

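The cytosolic ribosomal protein genes are the genes for the proteins that, with ribosomal RNA, build the ribosomes of the cytoplasm. They were chosen by symbol alone. Every protein-coding gene named RPL or RPS with a number and an optional A or X was taken, together with RPLP0, RPLP1, RPLP2 and RPSA. Paralogs with an L suffix and all pseudogenes were left out. This gave 77 members among 58395 genes in the count files, 46 of the large subunit and 31 of the small subunit, and all 77 were among the 16905 genes that passed the filter on low counts. RNA was sequenced from HeyA8 cells, a single established line of human ovarian cancer, after transfection of siRNA duplexes at 10 nM. siNT1 (labelled siNT1 S2'OM) is the nontargeting control, siGGGGGC (labelled siMxy) carries a G-rich consensus of toxic seeds, and siGGCAGU (labelled si34a) carries the seed of the microRNA miR-34a-5p. The study describes chemically modified passenger strands, meant to keep these strands from being loaded. The 5 groups, of 2 libraries each, were siNT1 at 24 h, siGGGGGC at 24 h, siNT1 at 48 h, siGGCAGU at 48 h and siGGGGGC at 48 h. All groups, the controls included, received a duplex and transfection lipid. By the study's methods, the wells kept until 48 h had their medium changed at 24 h. The duplicates were wells, so the p-values measure the spread between wells and libraries only.

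A cytoplasmic ribosome holds 1 copy of nearly every one of these proteins, and their genes are expressed in every growing cell. Large-subunit proteins line the peptide exit tunnel and form the stalk that recruits elongation factors, while small-subunit proteins shape the decoding head. Most of the messenger RNAs begin with a terminal oligopyrimidine (TOP) tract, a C followed by pyrimidines at the cap, through which mTOR and LARP1 control their translation and stability. RPL5 and RPL11, when not built into ribosomes, bind MDM2 and so stabilise p53.

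Start site sequences are shown for the members whose changes lead the results, since the tract is a feature that the choice of genes did not use. In RefSeq promoters (GRCh38.p14) an entry was found for 62 of the 77 members, and in 42 of these (67.7%) the annotated start was a C followed by at least 4 pyrimidines on the sense strand. The share was 65.8% in the large and 70.8% in the small subunit, and it was 5.4% in 10167 protein-coding genes tested and 4% in all 27305 promoters. The windows run from 15 bases before the start, with the C at the start and the unbroken pyrimidines after it in capitals. They lie at chr6:132814554-132814583 (plus strand) for RPS12, chr19:48619164-48619193 (minus strand) for RPL18, chr19:55385917-55385946 (plus strand) for RPL28, chr5:82278340-82278369 (minus strand) for RPS23 and chr19:1438381-1438410 (plus strand) for RPS15. RPS15 has the C but no pyrimidine tract after it at its annotated start.
RPS12: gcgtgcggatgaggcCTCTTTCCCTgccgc
RPL18: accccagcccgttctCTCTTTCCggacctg
RPL28: tcgcccctcgccttcCTCTTTCCgtctcag
RPS23: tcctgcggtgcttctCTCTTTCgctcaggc
RPS15: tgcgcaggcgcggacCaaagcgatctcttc

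The seeds of the duplexes are those of 2 human microRNAs, whose mature sequences from RefSeq (GRCh38.p14) are shown because they define the words searched in the members. Capitals mark bases 2 to 8. The 6mer seed is bases 2 to 7, GGCAGU in hsa-miR-34a-5p (chr1:9151735-9151756, minus strand) and GGGGGC in hsa-miR-1237-5p (chr11:64368651-64368671, plus strand).
hsa-miR-34a-5p: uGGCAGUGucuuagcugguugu
hsa-miR-1237-5p: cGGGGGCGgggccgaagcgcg

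The matching words in messenger RNA are GCCCCC for siGGGGGC and ACTGCC for siGGCAGU. Both words were searched on the sense strand of the longest annotated 3′ UTR (GENCODE 44, hg38). GCCCCC was present in 13 members (16.9%) against 31.6% of 12409 protein-coding genes tested, and ACTGCC in 16 members (20.8%) against 36.5%. The median length of the longest 3′ UTR was 543 bases in the members and 1538 bases in those genes. In the canonical transcript the medians were 112 and 1347 bases. There GCCCCC was in 10.4% of members against 29.3% of those genes, and ACTGCC in 15.6% against 34.1%. RPL28, RPS23 and RPL10 are shown because they carry GCCCCC and were lower with siGGGGGC at 48 h. The word in capitals lies in exonic 3′ UTR at chr19:55389895-55389900 (plus strand) in RPL28, at chr5:82274293-82274298 (minus strand) in RPS23 and at chrX:154400871-154400876 (plus strand) in RPL10. RPL28 also carries ACTGCC, shown at chr19:55389428-55389433.
RPL28 GCCCCC: acctgctcaggaGCCCCCactgtcccagtc
RPL28 ACTGCC: actctgtcagccACTGCCagggaccaagga
RPS23 GCCCCC: tttctctgtgtgGCCCCCcagcccctttcc
RPL10 GCCCCC: ttccaatgtgctGCCCCCctcttaatactc

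The libraries held between 19781445 and 42428986 counts, and the lowest raw count of a member in any library was 85. Keratins KRT7, KRT8 and KRT18 were present at normalised counts between 1943 and 10351 and VIM between 20409 and 39331, whereas KRT19 and EPCAM stayed at or below 45.3 and MUC16 and CDH1 were too low to be tested. The epithelial ovarian list of 11 genes included VIM, the gene with the most counts in it. This list summed to 27442 and 27616 in siGGGGGC at 48 h and between 46446 and 57259 in the other groups. Leukocyte markers summed to at most 6.54 and erythroid markers to at most 1.44 normalised counts, and endothelial markers to between 14.5 and 52.5. The small RNA genes RN7SL2 and SNORD3A took from 19.8% to 32.0% of a library, which lowers any share of all counts. The part of the marker lists in the results was not tested. Normalised counts are counts scaled to a common library size by the TMM method. A member is called higher or lower when the edgeR quasi-likelihood test gives an adjusted p below 0.05 over all 16905 genes.

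The siNT1 libraries at 48 h stood apart from each other over the members. In replicate 1 the members were lower than in replicate 2 for 71 of 77 genes, with a median log2 difference of −0.27, while the median over all genes tested was −0.01. The same difference was −0.01 for siNT1 at 24 h, −0.06 and 0.01 for siGGGGGC at 24 h and 48 h, and 0.13 for siGGCAGU. Across the 77 members, which share these libraries, the log2 difference between the siNT1 libraries at 48 h went with the GC content of the transcript (Pearson's r = 0.48). Comparisons of both siRNAs at 48 h share these 2 control libraries, and the totals of called members at 48 h are given with and without them in turn.

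Together the 77 members held 10.1% and 10.0% of the counts in the siNT1 libraries at 24 h and 9.02% and 9.21% in siGGGGGC at 24 h. At 48 h they held 8.66% and 9.56% in siNT1, 8.09% and 8.70% in siGGCAGU and 8.81% and 9.33% in siGGGGGC. The siNT1 libraries at 24 h were the highest, and at 48 h the siNT1 range overlapped with those of both siRNAs, which did not overlap with each other. In bulk RNA fewer cells of a kind and less RNA per cell cannot be told apart. Without RN7SL2 and SNORD3A the group means were 14.0% ± 0.024 in siNT1 and 13.2% ± 0.149 in siGGGGGC at 24 h (SD, n = 2). At 48 h they were 11.7% ± 1.25 in siNT1, 11.7% ± 0.292 in siGGCAGU and 12.3% ± 0.0156 in siGGGGGC. The order of siNT1 and siGGGGGC at 48 h thus depended on the denominator. The ratio of large- to small-subunit counts, which was not tested, was 1.27 and 1.29 in siNT1 at 24 h, 1.29 and 1.28 in siGGGGGC at 24 h, 1.36 and 1.33 in siNT1 at 48 h, 1.32 and 1.37 in siGGCAGU and 1.39 and 1.40 in siGGGGGC at 48 h. The siGGGGGC libraries at 48 h had the highest ratio and did not overlap with any other group.

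**Figure D1:**
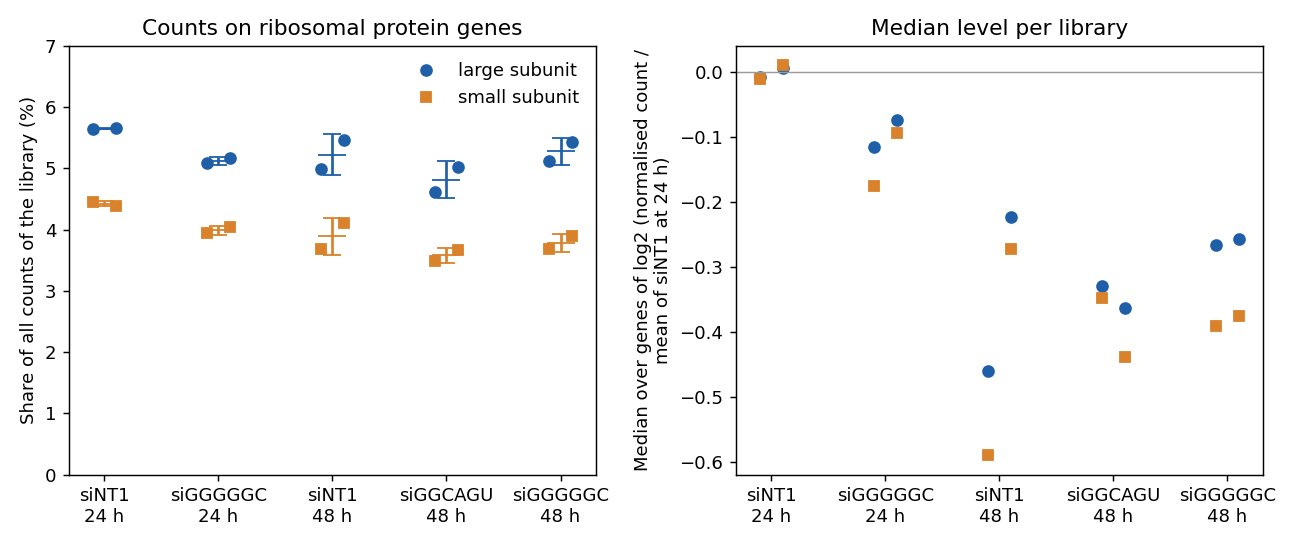
Left, share of all counts of each library on large-subunit (blue circles) and small-subunit (orange squares) genes, in percent, with mean and SD bars over 2 libraries. Right, the median over the genes of a subunit of log2 of the normalised count over its mean in siNT1 at 24 h, 1 point per library. The lowest medians, −0.46 and −0.59, belong to replicate 1 of siNT1 at 48 h.

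Per kilobase of the canonical transcript the members spanned a wide range, with a median of 874 CPM per kilobase, 603 in the large and 1177 in the small subunit. Before division by length the median normalised counts were close, 24068 in the large and 24642 in the small subunit. The median canonical lengths were 993.5 and 732 bases. RPS18, a protein of the small-subunit head, had the highest mean level at 10326 CPM per kilobase, followed by RPS20 at 8756 and RPS29 at 6792. The lowest were RPS10 at 14.3, RPL17 at 16.7 and RPS26 at 18.0 CPM per kilobase. For RPS10, 97.4% of the counts on the gene and the pseudogenes named for it were on the pseudogenes, and for RPL17 it was 96.7%, whereas for RPS26 it was 9.63%. Some canonical transcripts carry long 3′ UTRs, such as RPL28 with 3753 bases, which lowers a level per length.

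Ribosomal protein genes have many processed pseudogenes, intronless copies of the messenger RNA, and reads that match several copies are not assigned with certainty. Of 1587 ribosomal protein pseudogenes in the files 1126 had counts, and 253 were tested. In 17 members more than 50% of the summed counts of gene and copies lay on the copies, and in 9 members more than 90% did. RPS27 had 6823 counts against 647660 on RPS27P3, and RPL36A had 3885 against 378145 on RPL36AP37. Others past 90% included RPS10, RPL17, RPL21, RPL39, RPS3A and RPL7. The median over the members was 5.53%, so for most of them the gene itself held nearly all the counts. Each test was repeated with every member summed with the pseudogenes named for it, an alternative that was chosen after seeing the data. Of the members, 5 also share over 40% of their exonic bases with a readthrough gene or another gene on the same strand, RPL17, RPS10, RPL26 and RPL36A among them, and the overlapping genes were listed at 0 counts in all 10 libraries. Values of these 5 and of the 17 are uncertain.

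Among the controls alone, most members were lower at 48 h than at 24 h. Only the 48 h wells had a change of medium, so time and this change cannot be told apart. Against siNT1 at 24 h, 43 of 77 members fell and 2 rose at 48 h, where 7.2% of all genes tested were called lower and 9.37% higher. The median log2 change was −0.37 (quartiles −0.46 and −0.26), against −0.00 over all genes tested, and 72 members were below 0. Of the large subunit 23 of 46 fell, with a median of −0.34, and of the small subunit 20 of 31, with a median of −0.42. RPS3A, a platform protein of the small subunit, had 3229 and 3154 normalised counts at 24 h and 1824 and 2195 at 48 h, a log2 change of −0.67 (SE 0.115, adjusted p = 0.0022). It was called lower without any 1 of the 10 libraries, and it was the only member of the 43 for which that held. RPS29 fell from 70213 and 71885 to 35888 and 52931 (log2 change −0.68, SE 0.161, adjusted p = 0.0121). RPS6, the S6 kinase substrate, fell by 0.50 and RPS27A, made as a fusion with ubiquitin, by 0.44 on the log2 scale. RPL36A fell by 0.68, and 99.0% of the counts of its family lay on pseudogenes.

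The rises were RPL28 and RPLP1. RPL28, a large-subunit protein, had 1761 and 1777 normalised counts at 24 h and 3761 and 3198 at 48 h (log2 change 0.98, SE 0.228, adjusted p = 0.0112). RPLP1, an acidic protein of the stalk, went from 8870 and 8860 to 12719 and 13140 (log2 change 0.54, SE 0.159, adjusted p = 0.0308). For both, the libraries of 24 h and 48 h did not overlap. The number of falling members depended on single libraries, and so did the share of all genes called lower. The median log2 change of the members was −0.24 without siNT1 48 h replicate 1 and −0.48 without siNT1 48 h replicate 2. It was −0.40 and −0.32 without siNT1 24 h replicate 1 and replicate 2. It stayed negative in all 10 fits that left out 1 library. With RN7SL2 and SNORD3A removed from the counts 48 members were lower, where 7.76% of all genes were.

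With siGGGGGC at 24 h, 6 members fell and 2 rose against siNT1, where 8.32% of all genes were lower and 10.6% higher. These counts depended on which libraries shared the fit, since with only the 4 libraries compared 36 members were lower and 7 higher, where 16.7% and 17.6% of all genes were. The median log2 change was −0.12 (quartiles −0.21 and 0.01), and 55 of 77 members were below 0. The spread of the log2 changes was narrower than that of all genes, with an SD of 0.25 against 0.60. The members had a median normalised count of 24642, and all genes tested include genes with low counts. The 2 sets were not matched for count level, and its part in the spread was not tested. Large and small subunit had medians of −0.11 and −0.12, with 4 of 46 and 2 of 31 members lower. Of all genes 3.72% passed with a log2 change beyond 1, and 1 member did.

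That member was RPL36A, with 764 and 718 normalised counts in siNT1 and 409 and 315 in siGGGGGC (log2 change −1.03, SE 0.153, adjusted p = 0.000244). Summed with its pseudogenes it changed by −0.27 (adjusted p = 0.164), so the call was lost. RPS26, a protein near the mRNA exit channel, went from 734 and 697 to 495 and 389 (log2 change −0.69, SE 0.14, adjusted p = 0.00269) and kept the call with its pseudogenes. RPS27, RPL21, RPL9 and RPL13A were lower by 0.44 to 0.36 on the log2 scale, and of these RPL9 kept the call with its pseudogenes. RPS15, a protein of the head near the decoding site, rose from 3990 and 5147 to 8506 and 8089 normalised counts (log2 change 0.86, SE 0.136, adjusted p = 0.000427). RPL8, which lies at the peptidyl transferase centre, rose from 43433 and 48114 to 64973 and 68517 (log2 change 0.54, SE 0.107, adjusted p = 0.00234). In both the treated libraries lay above both controls. Leaving out 1 library at a time gave 1 to 10 members lower and 1 to 4 higher, and RPS15 and RPL36A were called each time. The median log2 change ran from −0.13 to −0.07 over these 10 fits, and the shares of all genes called moved between them as well.

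**Figure D2:**
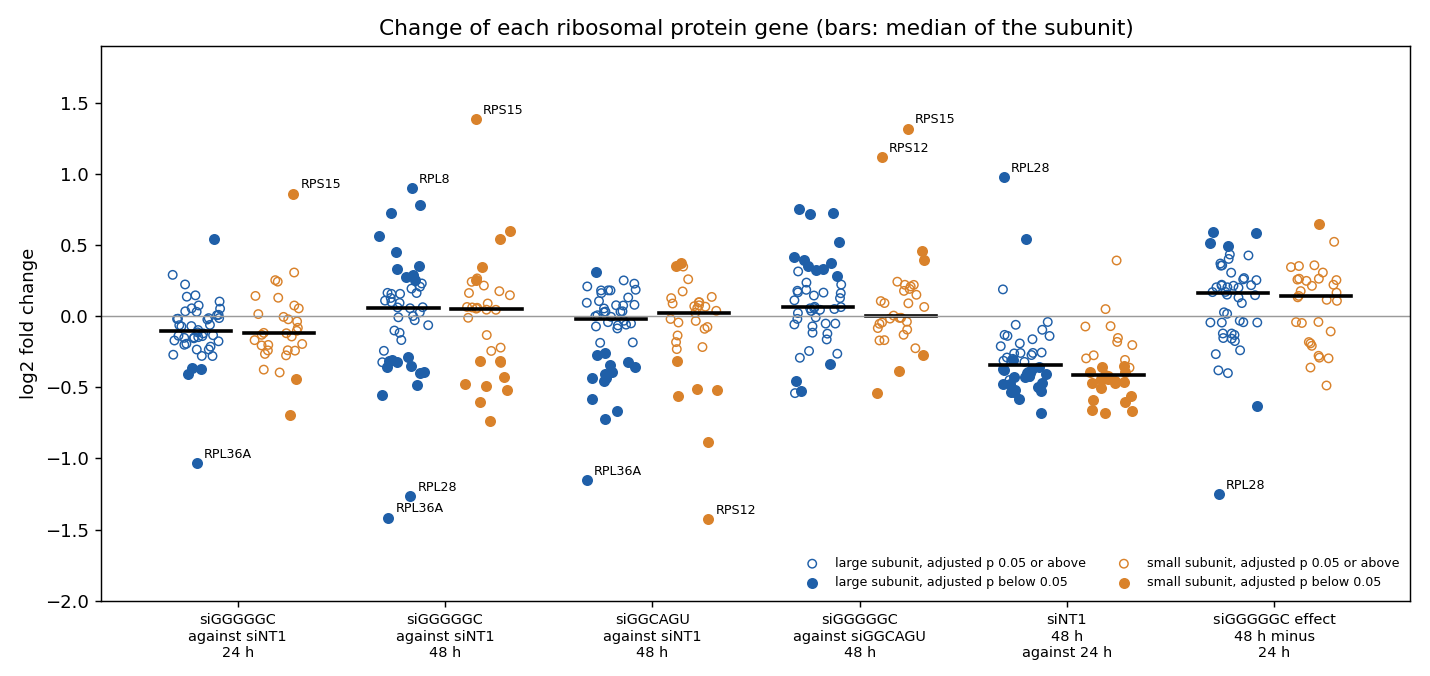
Log2 fold change (vertical axis) of each of the 77 members in the 6 comparisons, large subunit in blue and small subunit in orange, with filled points for an adjusted p below 0.05 and black bars at the median of the subunit. In siGGGGGC at 48 h the points spread to both sides of 0, and in siNT1 at 48 h against 24 h both medians lie below 0 (−0.34 and −0.42).

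At 48 h siGGGGGC moved members in both directions. Against siNT1, 15 members rose and 20 fell, where 27.8% of all genes tested were called higher and 27.5% lower. The median log2 change was 0.06 (quartiles −0.31 and 0.21) against −0.01 over all genes, and 33 members were below 0. The SD over the members was 0.43, against 0.99 over all genes, which again were not matched for count level. In the large subunit 10 rose and 12 fell with a median of 0.06, and in the small subunit 5 rose and 8 fell with a median of 0.05. In the same libraries the epithelial ovarian list, VIM included, summed to 27442 and 27616, against 55455 and 57259 in siNT1. Most of this sum was VIM, with 20925 and 20409 in siGGGGGC against 37296 and 39331 in siNT1. The part of these markers in the counts of calls was not tested. Past a log2 change of 1 there were 3 members, where 21.5% of all genes passed.

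The largest rise was that of RPS15, from 5027 and 3665 normalised counts in siNT1 to 11604 and 11073 in siGGGGGC. Both treated libraries lay above every other library of the series, including those of siGGGGGC at 24 h. Its log2 change was 1.38 (SE 0.136, adjusted p = 5.58e-07), and 1.78 when summed with its pseudogenes, which held 50.4% of the summed counts. RPL8 had 36579 and 34775 in siNT1 and 61635 and 71474 in siGGGGGC (log2 change 0.90, SE 0.108, adjusted p = 4.36e-06). RPL18 had 19037 and 20565 in siNT1 and 33378 and 34718 in siGGGGGC (log2 change 0.78, SE 0.102, adjusted p = 1.06e-05). RPL18 carries GCCCCC in its longest 3′ UTR and is mutated in some patients with Diamond-Blackfan anaemia, an inherited failure of red cell formation. RPL13, a large-subunit protein, rose from 8193 and 8829 to 12822 and 15386 (log2 change 0.73, SE 0.104, adjusted p = 2.58e-05). RPS7, another Diamond-Blackfan gene, rose by a log2 change of 0.60 (SE 0.121, adjusted p = 0.000619), from 14393 and 17455 to 22914 and 25313. In these 5 members both siGGGGGC libraries lay above both siNT1 libraries at 48 h.

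**Figure D3:**
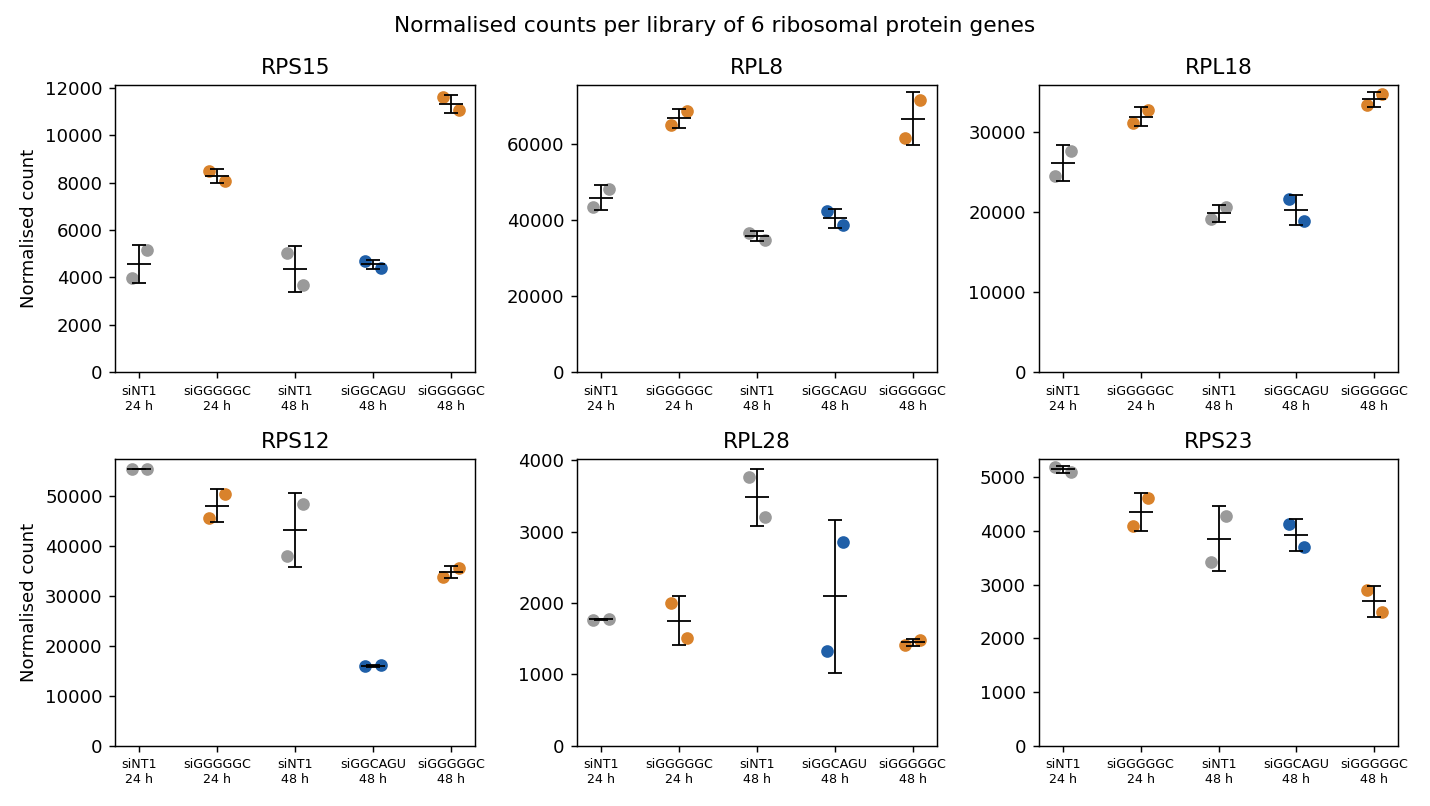
Normalised counts (vertical axis, from 0) of 6 members in each of the 10 libraries, with the mean and SD of each group of 2 (grey siNT1, orange siGGGGGC, blue siGGCAGU). RPS15, RPL8 and RPL18 are higher in both siGGGGGC groups than in the siNT1 group of the same time, and RPS12 is lowest in siGGCAGU at 15908 and 16218.

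Falls with siGGGGGC at 48 h were led by RPL36A and RPL28. RPL28 went from 3761 and 3198 normalised counts in siNT1 to 1415 and 1481 (log2 change −1.26, SE 0.229, adjusted p = 0.000242), and its pseudogenes held 0.13% of the summed counts. Both values lay below those of the groups at 24 h, which ranged from 1511 to 1994. RPL36A went from 410 and 512 to 179 and 168 (log2 change −1.42, SE 0.16, adjusted p = 2.29e-06), and with its pseudogenes the change was −0.18 (adjusted p = 0.259). RPS23, a protein of the decoding centre, went from 3426 and 4278 to 2897 and 2483 (log2 change −0.52, SE 0.114, adjusted p = 0.00119). RPS10 and RPL17 changed by −0.60 and −0.55, and with their pseudogenes by 0.55 and 0.11. RPS10 thus turned from a call lower to a call higher (adjusted p = 0.000428 with pseudogenes), so its direction cannot be told from these counts. RPSA, which is also known as the laminin receptor, fell by 0.43 and RPLP0 by 0.28 on the log2 scale.

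**Figure D4:**
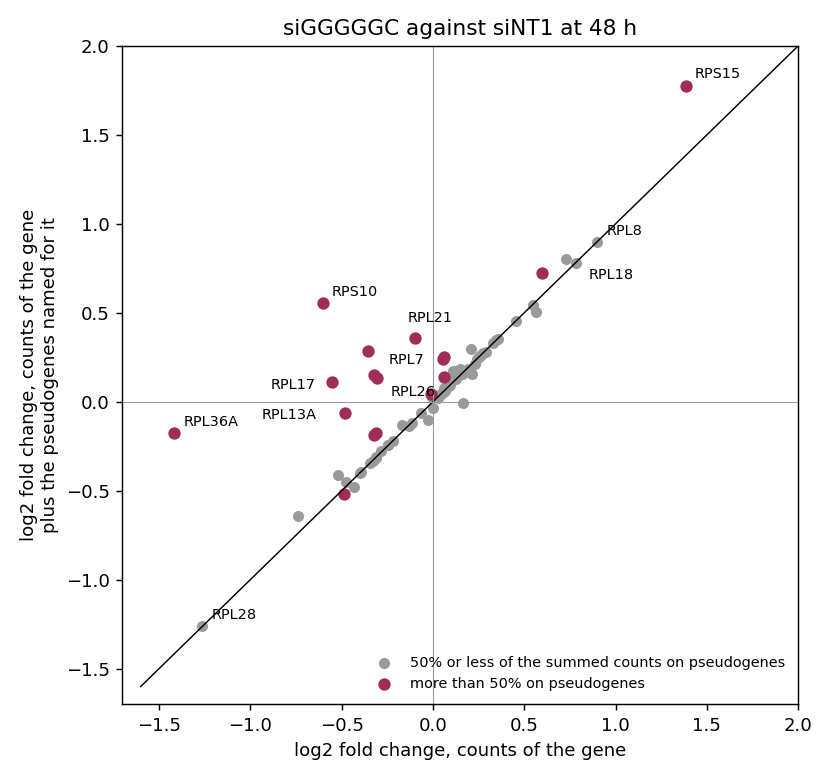
Log2 fold change of siGGGGGC against siNT1 at 48 h for each member from its own counts (horizontal axis) and from its counts plus those of the pseudogenes named for it (vertical axis), with the line of equality. Purple points are the 17 members with more than 50% of the summed counts on pseudogenes. RPL28, RPL8 and RPL18 lie on the line, while RPL36A moves from −1.42 to −0.18 and RPS10 from −0.60 to 0.55.

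Of the 35 members called with siGGGGGC at 48 h, 15 were called without any 1 of the 10 libraries. The 8 higher ones were RPL13, RPL18, RPL24, RPL35A, RPL8, RPS15, RPS19 and RPS7, and all 8 were also called when summed with pseudogenes. The 7 lower ones included RPL10, RPL13A, RPL28, RPL36A, RPS23 and RPS27, and all but RPL13A and RPL36A were called lower with pseudogenes as well. Summing with pseudogenes gave 19 members higher and 12 lower. Without siNT1 48 h replicate 1, 10 members were higher and 24 lower (median −0.11), and without siNT1 48 h replicate 2, 29 were higher and 8 lower (median 0.21). Without siGGGGGC 48 h replicate 2 there were 9 higher and 8 lower. In each of those fits all genes were called higher and lower at nearly equal shares. Without the filter on low counts there were 10 higher and 28 lower with a median of −0.06, where 9.63% and 13.6% of 41458 genes were. With RN7SL2 and SNORD3A removed there were 14 higher and 23 lower, where 26.4% and 28.9% of all genes were.

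With siGGCAGU at 48 h members were called lower at about the share of all genes, and called higher less often, in the fit of all libraries. Whether falls outnumbered rises depended on which siNT1 library of 48 h was left out, as given below. Against siNT1, 20 members fell and 3 rose, where 24.9% of all genes were called lower and 27.8% higher. The median log2 change was −0.00 (quartiles −0.26 and 0.10), against 0.02 over all genes, and 40 members were below 0. It was −0.14 without siNT1 48 h replicate 1 and 0.09 without siNT1 48 h replicate 2. The SD over the members was 0.33, against 0.95 over all genes, which were not matched for count level. In the large subunit 14 of 46 fell and 1 rose with a median of −0.02, and in the small subunit 6 of 31 fell and 2 rose with a median of 0.02. Of all genes 20.3% passed with a log2 change beyond 1, and 2 members did.

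RPS12, a protein of the small-subunit head, had the largest fall. It had 37998 and 48499 normalised counts in siNT1 at 48 h and 15908 and 16218 in siGGCAGU (log2 change −1.43, SE 0.116, adjusted p = 6.22e-08). Both siGGCAGU libraries lay below every other library, the next lowest being those of siGGGGGC at 48 h with 33917 and 35728. RPS12 has ACTGCC in its coding sequence and not in its 3′ UTR, which has 22 bases. In coding sequences ACTGCC was present in 9 members (11.7%), against 39.3% of the protein-coding genes tested. Of these 9, RPS12, RPS2 and RPS3 were called lower with siGGCAGU and RPS18 was called higher. RPL12, RPL3, RPL30, RPL5 and RPS3A were not called. The part of the word in the fall of RPS12 was not tested. RPL36A went from 410 and 512 to 174 and 235 (log2 change −1.15, SE 0.155, adjusted p = 1.38e-05), and with its pseudogenes it changed by 0.03 (adjusted p = 0.848). RPL28 had 1331 and 2850 in siGGCAGU, below both siNT1 libraries but far from each other (log2 change −0.72, SE 0.225, adjusted p = 0.0133). RPL17 changed by −0.67, and with its pseudogenes the call was lost. Rises were RPS18 (log2 change 0.37), RPS7 (0.36) and RPL35A (0.31), and none of these was called in all 10 fits that left out 1 library.

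Lower with siGGCAGU without any 1 of the 10 libraries were 8 members, among them RPL10, RPL17, RPL21, RPL36A, RPL9, RPS12 and RPS26. Of these RPL10, RPL9, RPS12 and RPS26 were also called when summed with pseudogenes, and the sums gave 12 members lower and 3 higher in all. Without siNT1 48 h replicate 1, 24 members were lower and 0 higher, and without siNT1 48 h replicate 2, 13 were lower and 17 higher. Rises numbered 0 without siGGCAGU replicate 1 and 6 without siGGCAGU replicate 2. The 7 members with mean normalised counts below 1000, which include RPS10, RPL17, RPL36A, RPS26, RPS27 and RPL9, were picked out after their values were seen, and 6 of these 7 were called lower with each siRNA at 48 h. Among the other 70 members 14 were lower and 15 higher with siGGGGGC, and 14 lower and 3 higher with siGGCAGU. Of all genes 27.5% were lower and 27.8% higher with siGGGGGC, and 24.9% and 27.8% with siGGCAGU. In RPS10, RPL17, RPL36A and RPS27 most counts of the family lay on pseudogenes. Summed with these, RPS10, RPL17 and RPL36A were not called lower with siGGGGGC, while RPS27 was. The part of low counts was not tested. Across the 77 members, which share libraries, log2 change and log2 mean count went together with r = 0.56 for each siRNA at 48 h.

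**Figure D5:**
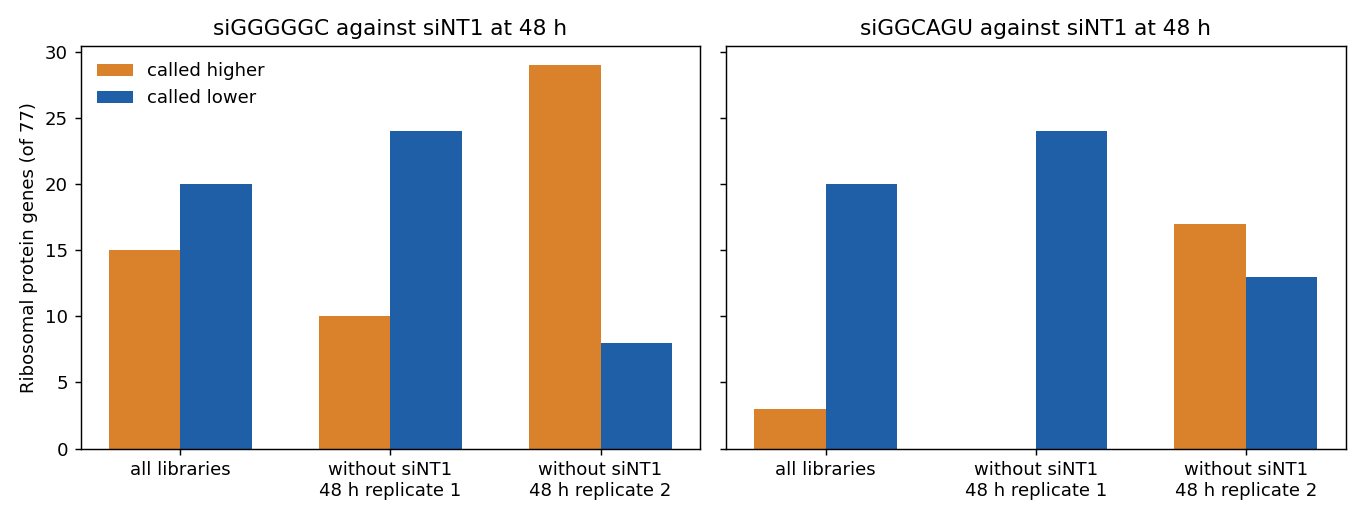
Number of members (of 77) called higher (orange) and lower (blue) at 48 h with siGGGGGC (left) and siGGCAGU (right), in all libraries and without each siNT1 library of 48 h. With siGGGGGC the counts go from 10 higher and 24 lower to 29 higher and 8 lower, depending on which control library is left out.

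The siRNAs were also set directly against each other at 48 h, a contrast that takes no siNT1 level, although the siNT1 libraries share in the fit. In siGGGGGC 15 members were higher and 6 lower than in siGGCAGU, where 26.7% of all genes were called higher and 27.6% lower. The median log2 difference was 0.06, and 31 members were below 0. RPS15 was higher by a log2 difference of 1.32 (SE 0.136, adjusted p = 8.37e-07), with 11604 and 11073 normalised counts against 4690 and 4413. RPS12 was higher by 1.12 (SE 0.115, adjusted p = 8.18e-07), with 33917 and 35728 against 15908 and 16218. RPL18 was higher by 0.75 (SE 0.102, adjusted p = 1.54e-05), with 33378 and 34718 against 21590 and 18893. RPL13 and RPL8 were both higher by 0.72, and RPLP2, an acidic stalk protein, by 0.52.

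Lower in siGGGGGC were RPS23, RPL30, RPL39, RPSA, RPL26 and RPS27, and 4 of these 6 were also called when summed with pseudogenes. Summed in this way, RPL26 had 9271 and 8389 normalised counts in siGGGGGC against 8947 and 7973 in siGGCAGU, so its direction turned. RPS23 had 2897 and 2483 normalised counts against 4134 and 3707 (log2 difference −0.54, SE 0.114, adjusted p = 0.000848). RPL30 had 7698 and 7383 against 11740 and 10023 (log2 difference −0.53, SE 0.117, adjusted p = 0.00124). RPL39 differed by −0.45, with 92.5% of the counts of its family on pseudogenes. In all, 10 members were called without any 1 of the libraries, namely RPL13, RPL18, RPL35, RPL8, RPLP2, RPS12, RPS15 and RPS9 as higher and RPL30 and RPS23 as lower. The counts were 12 higher and 3 lower without siGGGGGC 48 h replicate 2, 19 and 9 when either one of the siNT1 libraries of 48 h was left out, and 21 and 6 without siGGCAGU replicate 1. Large-subunit members were called higher in 11 and lower in 3 cases, and small-subunit members in 4 and 3.

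Whether the siGGGGGC effect differed between 48 h and 24 h was tested as an interaction. Here too time cannot be told apart from the change of medium in the 48 h wells. The log2 change at 48 h was above that at 24 h for 5 members and below it for 2, where 13.4% and 15.2% of all genes passed. RPS19 (difference of log2 changes 0.65, SE 0.185), RPL13 (0.59, SE 0.147), RPL24 (0.58, SE 0.186), RPL35A (0.52, SE 0.171) and RPL18 (0.49, SE 0.144) moved upward. RPL28 moved downward by −1.25 (SE 0.325, adjusted p = 0.0092), with normalised counts between 1511 and 1994 in both groups at 24 h and of 3761 and 3198 in siNT1 at 48 h. RPL17 moved by −0.63 (adjusted p = 0.0447) and lost the call with its pseudogenes. None of these 7 was called in all 10 fits that left out 1 library. The test uses both siNT1 groups, and without siNT1 48 h replicate 2 there were 26 members upward and 2 downward, and without siNT1 48 h replicate 1, 4 and 4. Without siGGGGGC 24 h replicate 1 there were 0 upward and 1 downward, and all other single omissions gave 1 to 10 upward and 1 to 5 downward.

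Large and small subunit had similar medians. The large minus small difference of the medians was 0.014 with siGGGGGC at 24 h, 0.0056 at 48 h, −0.042 with siGGCAGU, 0.061 between the siRNAs and 0.076 between the times in siNT1, while the SD over members ranged from 0.25 to 0.43. Between replicates of 1 group the medians of large and small subunit moved together, by −0.25 and −0.28 in siNT1 at 48 h and by 0.11 and 0.14 in siGGCAGU. No test was made of these differences, because genes are not replicates.

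By place in the ribosome, the stalk and its base (RPLP0, RPLP1, RPLP2 and RPL12) had 1 member higher and 2 lower with siGGGGGC at 48 h, and 0 higher and 3 lower with siGGCAGU. RPLP2 was on opposite sides of siNT1, at 0.25 with siGGGGGC (adjusted p = 0.0369) and −0.27 with siGGCAGU (adjusted p = 0.0271). Its libraries held 31100 and 33446 normalised counts in siNT1, 38060 and 38808 in siGGGGGC and 25934 and 27531 in siGGCAGU, and no group overlapped with another. The siGGGGGC call was lost in 7 of 10 fits without 1 library, under the replicate block (adjusted p = 0.0528), with RN7SL2 and SNORD3A removed, without the filter and with only the compared libraries fitted. The siGGCAGU call was lost in 2 of 10 fits without 1 library and with only the compared libraries fitted (adjusted p = 0.119). RPLP1 fell by 0.40 with siGGGGGC and by 0.58 with siGGCAGU. RPL5, one of the 5S RNP proteins that bind MDM2, rose by a log2 change of 0.29 with siGGGGGC at 48 h (adjusted p = 0.0266), a call lost in 4 of 10 fits without 1 library, without the filter and with only the compared libraries fitted (adjusted p = 0.0677). RPL11, the other, was not called against siNT1, and the difference between them was not tested. Of the 8 exit-tunnel proteins 2 rose and 2 fell with siGGGGGC at 48 h, and 0 rose and 2 fell with siGGCAGU. Of the 14 head proteins of the small subunit 2 rose and 3 fell with siGGGGGC and 1 rose and 4 fell with siGGCAGU. Of 18 Diamond-Blackfan anaemia genes 6 rose and 5 fell with siGGGGGC, and 2 rose and 3 fell with siGGCAGU. Among all 16905 genes 27.8% rose and 27.5% fell with siGGGGGC, and 27.8% rose and 24.9% fell with siGGCAGU, and these short lists were not tested against those shares. RPS6, RPS27A and RPL22, an RNA-binding protein of the large subunit, were not called against siNT1 of the same time.

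Members with a matching word in the 3′ UTR were set beside those without, as a description. The 13 with GCCCCC included RPL10, RPL11, RPL18, RPL23, RPL27A, RPL28, RPL37, RPS21, RPS23, RPS24 and RPS29. At 24 h with siGGGGGC none of these was called, and their median log2 change was −0.19 against −0.10 in the 64 others. Of those 64, 2 were higher and 6 lower, and of all genes 10.6% and 8.32%. At 48 h, 1 was higher (RPL18) and 5 were lower, with a median of −0.24 against 0.06. Of the 64 others 14 were higher and 15 lower, and of all genes 27.8% and 27.5%. In the canonical 3′ UTR 8 members carried GCCCCC. Of these 0 were higher and 3 lower at 48 h, with a median of −0.15 against 0.06. With siGGCAGU, whose word is another one, the same 13 genes had 0 higher and 5 lower with a median of −0.07 against 0.00. The 64 others had 3 higher and 15 lower, and of all genes 27.8% were higher and 24.9% lower. The 16 with ACTGCC included RPL13A, RPL14, RPL15, RPL27A, RPL28, RPL32, RPL37A, RPL38, RPL4, RPL7, RPS14, RPS23, RPS24, RPS29 and RPS3. With siGGCAGU 0 of these were higher and 6 lower, and their median was −0.0041 against −0.0045 in the 61 others. Of those 61, 3 were higher and 14 lower. With siGGGGGC at 48 h the same 16 genes had 0 higher and 6 lower and a median of −0.18 against 0.06. The 61 others had 15 higher and 14 lower.

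Further features that the choice did not use were shared by many members. SnoRNA genes, whose RNAs guide the modification of ribosomal RNA, lie within 28 members, 60 of them in all. The members are spread over 21 chromosomes, the median coding length is 456 bases and the median GC content of the canonical transcript is 47.6% (40.1% to 63.6%). Across the 77 members GC content and log2 change went together with r = 0.47 for siGGGGGC at 24 h, 0.30 at 48 h and −0.02 for siGGCAGU.

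Related gene lists were read against the same shares of all genes, 27.8% higher and 27.5% lower with siGGGGGC at 48 h, 27.8% and 24.9% with siGGCAGU, and 9.37% and 7.2% over time in siNT1. Of 8 L-suffixed paralogs, genes related to members, 7 were tested, and with siGGGGGC at 48 h 5 rose and 1 fell. RPL26L1 had 1562 and 1891 normalised counts in siNT1 and 3725 and 3645 in siGGGGGC (log2 change 1.09), while RPL26 itself changed by −0.31 with its own counts and 0.14 with its pseudogenes. RPL39L, a paralog of the exit-tunnel protein RPL39, rose with siGGGGGC (log2 change 0.87 at 24 h and 0.71 at 48 h) and fell by 0.59 with siGGCAGU. Of the ribosomal protein genes with other names, FAU was not called in any comparison and RACK1 rose by a log2 change of 0.28 with siGGGGGC at 48 h. Mitochondrial ribosomal protein genes, 78 in number, had 31 higher and 20 lower with siGGGGGC at 48 h, 23 and 16 with siGGCAGU, and 0 and 25 in siNT1 at 48 h against 24 h. The median of the last was −0.27. Translation factors and other TOP messenger RNAs, 19 tested of 20, had 2 higher and 6 lower with siGGGGGC at 48 h and 0 and 8 with siGGCAGU, and IPO7, a nuclear import receptor, changed by −1.04 with siGGCAGU.

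A list of 25 genes that control ribosomal protein synthesis or act in its surveillance had 9 that rose and 10 that fell with siGGGGGC at 48 h, and 4 that rose and 15 that fell with siGGCAGU. MYC, which drives transcription of ribosomal genes, had 2561 and 2360 normalised counts in siNT1, 853 and 923 in siGGGGGC (log2 change −1.47) and 693 and 730 in siGGCAGU (log2 change −1.79). EIF4EBP1, a translation repressor below mTOR, fell by 1.96 and 1.12 on the log2 scale. DDIT4, an inhibitor of mTOR, had 37.2 and 30.9 in siNT1, 329 and 329 in siGGGGGC (log2 change 3.28) and 103 and 123 in siGGCAGU (log2 change 1.76). SESN2, a leucine sensor that restrains mTOR, rose by a log2 change of 1.18 with siGGGGGC. RRS1, a factor that places the 5S RNP, changed by −1.40 with siGGGGGC and −1.50 with siGGCAGU. Its siNT1 libraries held 1054 and 865 normalised counts at 48 h and 502 and 444 at 24 h. At 48 h it had 330 and 393 in siGGGGGC, and 188 and 463 in siGGCAGU, far from each other.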

How the data were processed

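RNA-seq of total RNA (TruSeq Total RNA, fragments above 140 nt) was deposited for 10 libraries of HeyA8 cells in 5 groups of 2. The deposited values were raw counts per gene for 58395 Ensembl identifiers, whole numbers that the authors made from hg38 alignments. The submitters' processing notes name TopHat, Bowtie2, HTSeq and DESeq2. Strand setting and treatment of reads matching several places were not given in the sources used here. The authors' 4 tables of comparisons hold mean normalised counts, log2 fold changes and p-values and were not used.

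Counts were filtered with filterByExpr (16905 genes kept) and fitted with edgeR 4.0.16 in R 4.3.3 with TMM factors, in a single quasi-likelihood fit with a mean for each of the 5 groups over the 10 libraries (5 residual degrees of freedom, biological coefficient of variation 0.0837). P-values were adjusted by Benjamini-Hochberg over all genes tested, and a call needed an adjusted p below 0.05. With 2 libraries a group, a permutation test within a comparison cannot reach 0.05. Total counts per library ranged from 19781445 to 42428986, and every member had at least 85. Replicate numbers did not pair the libraries, since correlations of same-numbered deviations were between −0.09 and 0.03 over 10 pairs of groups.

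Alternatives were upper-quartile scaling, DESeq2 size factors, TMM without the members, removal of RN7SL2 and SNORD3A, no filter, the test of DESeq2 1.42.0, a replicate block, only the libraries compared, and each library left out. Summing members with their pseudogenes was added after seeing the data. Sequences came from RefSeq (GRCh38.p14) and from hg38 with GENCODE 44. Members and gene lists were chosen with earlier results of these data known. Named members were, for each siRNA against siNT1, up to 5 called falls and 5 called rises whose libraries lay beyond both controls (3 each way in the other comparisons), RPL5, RPL11, RPLP0, RPLP1, RPLP2, RPSA, RPS6, RPS27A, RPL22 and RPS27, the 3 highest and 3 lowest per length, and members with either word in the 3′ UTR. Genes of other lists were named when called with a log2 change beyond 1. A few genes that these rules select are not reported here. Further members are named where a count of calls is spelled out.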

Additional observations from a re-analysis of the deposited data

Results flagged for a closer look

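The siGGGGGC effect was called different between 48 h and 24 h in 7 members, by the interaction term of the edgeR fit with Benjamini-Hochberg adjustment over all genes. Upward were 5 of the 77 members and downward 2, where 13.4% and 15.2% of all genes were called. None of the 7 was called in all 10 fits that left out 1 library. The differences of log2 fold changes (48 h minus 24 h) were 0.65 for RPS19, 0.59 for RPL13, 0.58 for RPL24, 0.52 for RPL35A, 0.49 for RPL18, −0.63 for RPL17 and −1.25 for RPL28. RPS19 had 61228 and 62998 normalised counts in siNT1 and 58433 and 57259 in siGGGGGC at 24 h, and 41303 and 55344 against 74577 and 66513 at 48 h. RPL24 had 22581 and 28973 in siNT1 at 48 h against 37466 and 38883 in siGGGGGC. In these members replicate 1 of siNT1 at 48 h was the lower control, and its part in the differences was not tested. RPL28 went the other way, with replicate 1 the higher control. RPL17 shares 96.9% of its exonic bases with a readthrough gene, and summed with its pseudogenes its difference was 0.15 and was not called.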

How the results depend on the processing

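Leaving out 1 library at a time gave, with siGGGGGC at 24 h, 1 to 4 members higher and 1 to 10 lower (median −0.13 to −0.0696), and at 48 h 9 to 29 higher and 8 to 25 lower (median −0.11 to 0.21). It gave 0 to 17 higher and 13 to 24 lower with siGGCAGU, and 11 to 21 higher and 3 to 9 lower between the siRNAs. It gave 0 to 3 higher and 1 to 56 lower over time in siNT1, and 0 to 26 higher and 1 to 5 lower for the difference of effects (median 0.00369 to 0.26). Large minus small medians ranged over −0.00045 to 0.060, −0.027 to 0.032, −0.11 to 0.048, 0.020 to 0.076, 0.037 to 0.13 and −0.033 to 0.035 in that order. The shares of all genes called moved between these fits too. The cause of these ranges was not tested.

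With only the compared libraries fitted, siGGGGGC at 24 h gave 7 higher and 36 lower (all genes 17.6% and 16.7%). In such fits siGGCAGU gave 0 higher (all genes 22.3%) and siNT1 over time 25 lower (6.5%). The difference of effects gave 10 higher and 5 lower (16% and 18.1%). Without the filter there were 5 higher at 24 h (all genes 4.32%), 10 lower between the siRNAs (12.2%) and 4 higher over time (5.85%). For the difference of effects 8 were lower without the filter (8.21%). The median there was 0.0175, while that of all genes was 0.14. DESeq2 gave 0 higher over time and 9 higher and 0 lower for the difference of effects, and upper-quartile scaling 9 higher there and a median of −0.16 at 24 h. Summing with pseudogenes gave 2 lower at 24 h, 12 lower at 48 h with either siRNA and 1 lower for the difference of effects, and large minus small medians of 0.00915, 0.0492, −0.0177, 0.00875 and 0.0296 (without the comparison over time). Among called named members it turned the sign for RPL17 (0.11), RPL7 (0.15) and RPS10 (0.55) with siGGGGGC at 48 h. With siGGCAGU it did so for RPL21 (0.0292), RPL36A (0.0337) and RPS10 (0.0509), and in the difference of effects for RPL17 (0.15). Members outside the naming rule turned as well, such as RPL26 with siGGGGGC at 48 h. The replicate block gave 1 lower for the difference of effects and otherwise 2 and 6, 14 and 20, 3 and 19, 15 and 5, and 2 and 38 members higher and lower. It ended 9 calls of named members, the numbers not pairing the libraries. Shares of counts without RN7SL2 and SNORD3A were 14.0%, 13.2%, 11.7%, 11.7% and 12.3%, and among protein-coding counts 15.7%, 14.7%, 12.9%, 13.1% and 13.5%. In canonical 3′ UTRs GCCCCC was found in 8 members. Scaling by DESeq2 size factors, TMM without the members and removal of RN7SL2 and SNORD3A kept each count of calls within 1.5 times. No sign among called named members turned under the other alternatives. With 2 libraries a group, 32 of 108 calls of named members held without any 1 library.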

Other observations

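Other genes of the lists passed the test with a log2 change beyond 1. RPL3L, a muscle paralog of RPL3, had 17.9 and 18.6 normalised counts in siGGGGGC at 48 h and 0 to 3.93 in the other 8 libraries. CDKN1A, a p53 target that halts the cell cycle, had 11637 and 12996 in siGGGGGC at 48 h and 6508 and 5611 in siGGCAGU (log2 difference 1.02). RPS6KB2, a kinase for RPS6, had 131 and 134 in siGGGGGC and 326 and 343 in siNT1 at 48 h (log2 change −1.34), while RPS6 was not called there. EIF4EBP2 had 2028 and 2072 in siGGGGGC and 969 and 970 in siGGCAGU (log2 difference 1.08).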
